A study of Mus musculus with 6 samples.

Results

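The expression of 8 endocardial genes was examined in the 55416 genes of the count table: *Npr3*, *Nfatc1*, *Tmem100*, *Hapln1*, *Cytl1*, *Cdh11*, *Emcn* and *Cgnl1*, which were taken by gene symbol and each matched 1 row. RNA came from mGFP+ cells that were sorted from digested heart ventricles at E15.5, with 3 libraries from ControlΔEC embryos (Pdgfb CreERT2/+, Wt1 +/+, R26 mTmG/+) and 3 from Wt1KOΔEC embryos (Pdgfb CreERT2/+, Wt1 loxP/loxP, R26 mTmG/+). The dams of both genotypes received tamoxifen at 75 mg/kg between E11.5 and E13.5, so the controls, litter-mates by the study's breeding scheme, carried the same inducible Cre and reporter and had the same drug. The Pdgfb promoter drives the Cre, and mGFP marks the cells in which it recombined; by the study's staining these lay in vessels of the compact myocardium and not in the ventricular endocardium. The number of embryos behind each library was not given in the sources used here. The libraries of the genotypes also carry identifiers with different prefixes, consecutive within a genotype, and a batch that followed them cannot be told apart from the genotype.

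The libraries held between 26037324 and 44779020 counts, and 3 counts, taken as the floor of detection, was equal to 0.0608 to 0.119 CPM. CPM is the number of counts per 1000000 counts of the library, after its total was adjusted with the TMM method of edgeR. This floor covers counting error only, because amplified reads without molecular identifiers are not independent molecules. *Wt1*, the deleted gene, was at 145, 109.6 and 149 CPM in ControlΔEC replicates 1, 2 and 3 and at 14.0, 18.4 and 21.3 CPM in Wt1KOΔEC replicates 1, 2 and 3. The ribosomal RNA gene *Rn18s* took between 13.2% and 15.3% of the counts in ControlΔEC libraries and between 21.1% and 26.5% in Wt1KOΔEC libraries, and mitochondrially encoded genes between 5.21% and 6.61% and between 1.68% and 4.57%. With both left out before normalization the fold change of every member stayed on its side of 0 and no member passed the threshold. This only removes their counts, and whether the libraries differ in other ways that go with these shares was not tested.

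The endocardium is the endothelial layer that lines the heart chambers. It forms the valve cushions by transition into mesenchyme, signals to the trabecular myocardium, and is one of the sources of the coronary vessels. NFATC1 is the transcription factor long used to mark it, NPR3 is the receptor that clears natriuretic peptides, and HAPLN1 is a link protein that ties hyaluronan to proteoglycans in the cushions. None of the 8 genes is restricted to endocardium in the whole embryo: *Emcn* is also made by capillary and venous endothelium, *Cdh11* by mesenchymal cells, and *Tmem100* by arterial endothelium.

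The stretches upstream of *Emcn*, the most abundant member, and *Cytl1*, the most variable member in Wt1KOΔEC, are shown because these were the 2 of 5 matched members whose windows held a searched motif. The windows are the 250 bases before the RefSeq start, on the GRCm38.p6 build, and the 45 bases of the *Emcn* window that lie in an annotated exon were left off. Capitals mark AGGAAG, the core of an ETS site, or TGGAAA, the core of an NFAT site, on either strand, and no marked site overlaps another.
Emcn, chr3:137340828-137341032, plus strand: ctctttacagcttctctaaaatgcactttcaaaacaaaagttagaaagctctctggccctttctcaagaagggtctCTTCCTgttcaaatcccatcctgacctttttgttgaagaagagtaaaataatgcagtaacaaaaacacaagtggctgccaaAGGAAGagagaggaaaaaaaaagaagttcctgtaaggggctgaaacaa
Cytl1, chr5:37735269-37735518, plus strand: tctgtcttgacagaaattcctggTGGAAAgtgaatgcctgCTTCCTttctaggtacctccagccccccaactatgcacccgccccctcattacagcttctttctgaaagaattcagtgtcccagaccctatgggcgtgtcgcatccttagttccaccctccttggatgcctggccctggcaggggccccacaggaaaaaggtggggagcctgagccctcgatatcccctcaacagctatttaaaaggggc
The *Emcn* window held 2 ETS cores, and the *Cytl1* window 1 ETS core and 1 NFAT core. Over all 32851 promoter windows, 29.5% held the ETS core and 18.6% the NFAT core. Of the 5 member windows, that of *Hapln1* lies wholly in annotated exon on GRCm39 (250 bases) and that of *Npr3* in part (93 bases), so these hold transcribed as well as upstream sequence. The letters GTGGGAG, part of the WT1 site, and AGATAA, the core of a GATA site, were in 8.25% and 9.99% of all windows and in none of the 5 member windows, which were those of *Npr3*, *Hapln1*, *Cytl1*, *Emcn* and *Cgnl1*.

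All 8 genes were detected in every library, and all 8 passed the filter of at least 10 counts in at least 2 libraries. None of them was called different between the genotypes, where a call needs an adjusted p under 0.05 in edgeR's quasi-likelihood test and a log2 fold change above 0.58 in size; 12 of 16296 genes tested, 0.0736%, were called (0.0491% higher and 0.0245% lower). At an unadjusted p under 0.05, 4 of the 8, *Cdh11*, *Hapln1*, *Npr3* and *Emcn*, were higher in Wt1KOΔEC, beside 5.96% of all genes tested. For *Cdh11*, *Hapln1* and *Emcn* every Wt1KOΔEC library lay above every ControlΔEC library, which held for 10.3% of all genes tested; 8.97% lay lower in every Wt1KOΔEC library, 19.3% in either direction. DESeq2, the tool the study used, called *Cdh11* and *Hapln1* (1.66% of all genes tested were called higher, 2.02% lower and 3.68% in all), and no member was lower by either tool. All 8 log2 fold changes were above 0, beside 48.0% of all genes tested. They ranged from 0.01 to 1.01 with a median of 0.52, beside -0.03 over all genes tested; the 2 nearest to 0, *Cgnl1* and *Tmem100*, fell on the other side of 0 when only library size was used to scale. The same shares of all genes tested apply beside the counts of the lists below. The 8 genes and all lists below were chosen with earlier results of these data known. A larger share than among all genes tested is therefore not independent evidence of enrichment. In these bulk samples, a larger share of cells that make a transcript and more of it in each cell cannot be told apart. With 3 libraries against 3, the two-sided exact permutation test of a single gene cannot go below p = 0.1.

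**Figure D1:**
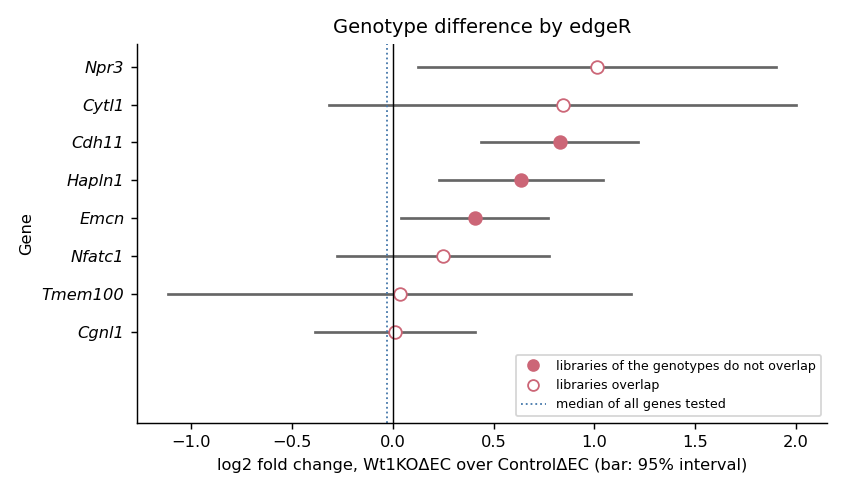
Points give the log2 fold change of each of the 8 genes, Wt1KOΔEC over ControlΔEC, and bars its 95% interval from edgeR's quasi-likelihood fit; filled points mark genes whose libraries do not overlap between the genotypes. *Cdh11*, *Hapln1* and *Emcn* are filled, and the intervals of *Cytl1*, *Nfatc1*, *Tmem100* and *Cgnl1* include 0; the points of *Tmem100* and *Cgnl1* move to the other side of 0 with library size as the only scaling.

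*Cdh11* (ENSMUSG00000031673.7; chromosome 8, 103358726 to 103512687 on GRCm39) encodes cadherin-11, an adhesion protein of mesenchymal cells that is also found in valve precursors. Its level was 68.8, 88.3 and 74.1 CPM in ControlΔEC replicates 1, 2 and 3, and 122, 129 and 159 CPM in Wt1KOΔEC replicates 1, 2 and 3. The genotypes did not overlap. A log2 fold change of 0.83 was estimated for *Cdh11* (standard error 0.17, 95% interval 0.44 to 1.22), with an adjusted p of 0.127 in edgeR and 0.00126 in DESeq2. With each library left out in turn it stayed between 0.71 and 0.94, with adjusted p-values from 0.109 to 0.384 in edgeR.

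*Hapln1* (ENSMUSG00000021613.10; chromosome 13, 89686581 to 89759950) was the member with the tightest values among the mutants. It was at 26.6, 30.9 and 32.9 CPM in ControlΔEC replicates 1, 2 and 3, and at 46.3, 46.9 and 47.6 CPM in Wt1KOΔEC replicates 1, 2 and 3. The coefficient of variation was 10.6% in ControlΔEC and 1.43% in Wt1KOΔEC. Its log2 fold change was 0.64 (standard error 0.18, 95% interval 0.23 to 1.05; adjusted p = 0.220 in edgeR and 0.0458 in DESeq2). Leaving out single libraries gave values between 0.56 and 0.71.

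Of the 14 other genes of the hyaluronan matrix, 13 were tested. None was called in edgeR, where 2 were higher and 2 lower at an unadjusted p under 0.05, or in DESeq2. *Vcan*, the proteoglycan that HAPLN1 links to hyaluronan, was picked out for that role after its value was seen; it lay higher in every Wt1KOΔEC library, by 0.41 ± 0.18 on the log2 scale (fitted value and standard error; adjusted p = 0.366 in edgeR). *Cemip2*, a cell-surface hyaluronidase, was the most abundant of the list, at 253 ± 32.9 CPM in ControlΔEC and 289 ± 70.8 CPM in Wt1KOΔEC (mean ± SD, n = 3 libraries each). *Stab2*, a scavenger receptor for hyaluronan, was at 0.514, 1.58 and 0.416 CPM in ControlΔEC and at 2.48, 5.11 and 3.96 CPM in Wt1KOΔEC replicates 1, 2 and 3 (log2 fold change 2.19, adjusted p = 0.316 in edgeR). The receptor *Cd44* was lower in every Wt1KOΔEC library, at 89.6 ± 7.57 CPM against 115 ± 10.1 CPM (log2 fold change -0.35, adjusted p = 0.365). *Hapln4*, a paralogue found in brain, had 0, 86 and 14 counts in ControlΔEC replicates 1, 2 and 3 and none in Wt1KOΔEC. Its ControlΔEC mean was 7.97 times the Wt1KOΔEC floor of 3 counts per library. Because ControlΔEC replicate 1 was at 0 too, the genotypes overlapped and this sets no lower limit on their difference.

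Because *Cdh11* and *Hapln1* are also made by mesenchyme, lists for these cells were read beside them. The 8 fibroblast genes summed to between 586 and 787.5 CPM in ControlΔEC libraries and to between 1280 and 1392 CPM in Wt1KOΔEC libraries. All 8 had a log2 fold change above 0, with a median of 0.88. In edgeR 1 was called, *Col1a1*, and in DESeq2 4 were, *Col1a1*, *Col1a2*, *Col3a1* and *Dcn*. Of all genes tested, 0.0491% were called higher in edgeR and 1.66% in DESeq2. *Col1a1*, a fibrillar collagen chain, was at 114 ± 12.5 CPM in ControlΔEC and 290.0 ± 40.0 CPM in Wt1KOΔEC (log2 fold change 1.34, adjusted p = 0.0441 in edgeR). This edgeR call was lost with library size as the only scaling (adjusted p = 0.0527), with length and GC offsets (0.0518), and when ControlΔEC replicate 1 (0.114), ControlΔEC replicate 3 (0.0506), Wt1KOΔEC replicate 1 (0.271), Wt1KOΔEC replicate 2 (0.117) or Wt1KOΔEC replicate 3 (0.242) was left out, while the log2 fold change of *Col1a1* stayed between 1.19 and 1.45. *Col3a1*, the most abundant, was at 319 ± 65.1 CPM and 624 ± 53.0 CPM (log2 fold change 0.97, adjusted p = 0.110 in edgeR and 9.73e-06 in DESeq2), and *Col1a2* at 104 ± 10.0 CPM and 190.1 ± 4.91 CPM (log2 fold change 0.87, adjusted p = 0.108 in edgeR and 2.39e-06 in DESeq2). *Dcn*, a small matrix proteoglycan named here for its DESeq2 call, was at 33.6 CPM and 65.7 CPM on average (adjusted p = 0.242 in edgeR and 0.0451 in DESeq2). None of the 8 fibroblast genes was at 0 in either genotype. The study also reports *Col1a1*, *Col3a1* and *Dcn* as overexpressed, and counts them there among venous markers. Elsewhere it lists *Col1a1* as a fibroblast gene. Their part in the values of *Cdh11* and *Hapln1* was not tested.

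Among 10 genes of the valve mesenchyme, 9 were tested, with a median log2 fold change of 0.31. None was called in edgeR, where 3 were higher and 1 lower at an unadjusted p under 0.05, or in DESeq2 after the filter. DESeq2 on every gene, a fit chosen after seeing the data, gave adjusted p-values of 0.031 for *Sox9* and 0.0468 for *Snai1*. The study itself reports *Sox9* as upregulated. *Sox9*, a transcription factor of cushion mesenchyme, was at 4.10 ± 1.65 CPM in ControlΔEC and 10.4 ± 1.78 CPM in Wt1KOΔEC (log2 fold change 1.34, adjusted p = 0.245). *Snai1* and *Snai2*, transcriptional repressors that drive the transition of endocardium into mesenchyme, had opposite signs. *Snai1* was at 3.13 ± 0.859 CPM and 7.48 ± 1.11 CPM (log2 fold change 1.26, adjusted p = 0.290 in edgeR). *Snai2* was at 29.7 ± 6.84 CPM and 17.9 ± 3.59 CPM (log2 fold change -0.73, adjusted p = 0.293 in edgeR). *Postn*, a matrix protein of valves and fibroblasts and the most abundant gene of the list, was at 242 ± 78.5 CPM in ControlΔEC and 217 ± 34.7 CPM in Wt1KOΔEC.

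**Figure D2:**
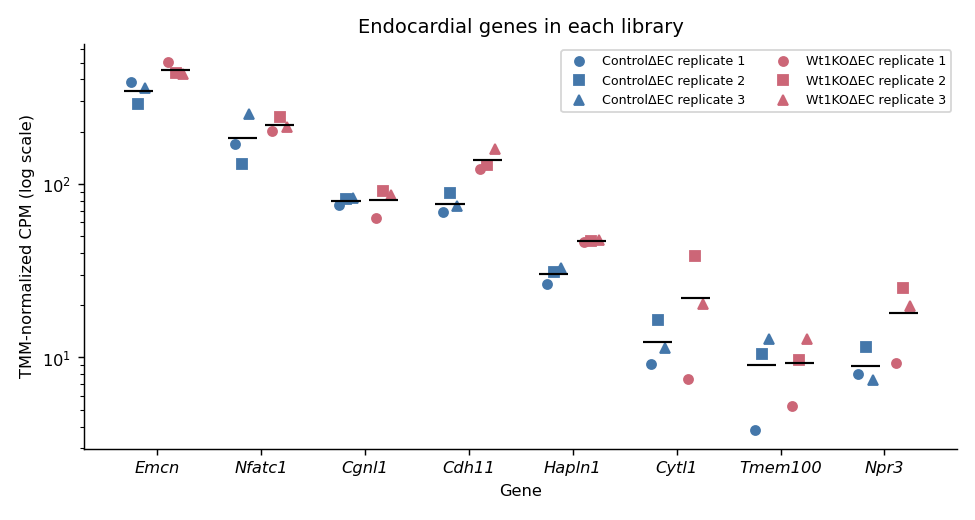
TMM-normalized CPM of the 8 genes on a log axis, with 1 point per library, marker shape by replicate number and a black line at the mean of each genotype. *Emcn* is the highest of the 8 and *Npr3* among the lowest, and the Wt1KOΔEC points of *Cdh11*, *Hapln1* and *Emcn* all lie above those of ControlΔEC.

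*Emcn* (ENSMUSG00000054690.18; chromosome 3, 137046794 to 137138999) encodes endomucin, a sialomucin of the endothelial surface, and ranked 331 of 55416 genes by mean CPM in ControlΔEC. It was at 386, 289.6 and 355 CPM in ControlΔEC replicates 1, 2 and 3, and at 501, 434 and 431 CPM in Wt1KOΔEC replicates 1, 2 and 3. The genotypes did not overlap, and the highest library was a mutant. Its log2 fold change came to 0.41 (standard error 0.16, 95% interval 0.04 to 0.77; adjusted p = 0.332 in edgeR and 0.131 in DESeq2), and this stayed between 0.30 and 0.50 with single libraries left out.

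Other sialomucins and selectin genes were read beside *Emcn*. *Cd34*, another endothelial sialomucin, was lower in every Wt1KOΔEC library, at 1498 ± 222 CPM in ControlΔEC and 1124 ± 146 CPM in Wt1KOΔEC (log2 fold change -0.42, standard error 0.17, adjusted p = 0.335 in edgeR). *Selp*, or P-selectin, was at 15.9, 18.9 and 15.0 CPM in ControlΔEC and at 24.1, 34.3 and 18.4 CPM in Wt1KOΔEC replicates 1, 2 and 3, where the genotypes overlapped (log2 fold change 0.63, adjusted p = 0.383). *Podxl2* differed by 0.41 on the log2 scale with a standard error of 0.41 (adjusted p = 0.762 in edgeR). None of the 6 tested genes of this list was called in edgeR, where 1 (*Cd34*) was lower at an unadjusted p under 0.05, or in DESeq2; 5 had a log2 fold change above 0 and 1 below, and *Muc1* was not tested.

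*Cgnl1* (ENSMUSG00000032232.15; chromosome 9, 71533791 to 71678884) encodes paracingulin, a protein of the cytoplasmic side of cell junctions. It was at 75.4, 81.5 and 82.7 CPM in ControlΔEC replicates 1, 2 and 3, and at 63.9, 90.9 and 86.6 CPM in Wt1KOΔEC replicates 1, 2 and 3. The controls lay inside the range of the mutants. The log2 fold change was 0.01 with a 95% interval from -0.39 to 0.41 (adjusted p = 0.991 in edgeR), so differences inside that interval were not excluded. The sign of the fold change was reversed in 6 of the alternatives.

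The 12 genes of cadherin and cingulin-linked junctions were all tested, and their median log2 fold change was -0.03. None was called in edgeR or DESeq2, and 0 had an unadjusted p under 0.05 in edgeR. *Ctnnb1*, or beta-catenin, the most abundant of them, was at 844 ± 58.0 CPM in ControlΔEC and 833.5 ± 98.4 CPM in Wt1KOΔEC. *Cdh2*, or N-cadherin, was at 9.85 ± 5.24 CPM and 7.43 ± 1.13 CPM (log2 fold change -0.41, adjusted p = 0.799 in edgeR), without the separation seen for *Cdh11*. *Jam3*, a junctional adhesion molecule, differed by 0.19 on the log2 scale with a standard error of 0.27 (adjusted p = 0.858 in edgeR). *Cgn*, the paralogue of *Cgnl1*, stayed under 1 CPM in all libraries but Wt1KOΔEC replicate 3, where it was at 3.92 CPM.

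*Npr3* (ENSMUSG00000022206.8; chromosome 15, 11839982 to 11907373) had the largest log2 fold change of the 8 genes and one of the lowest levels. It was at 8.07, 11.4 and 7.39 CPM in ControlΔEC replicates 1, 2 and 3, and at 9.27, 25.2 and 19.9 CPM in Wt1KOΔEC replicates 1, 2 and 3. Wt1KOΔEC replicate 1 lay inside the range of the controls, and the other two mutant libraries lay above it. On the log2 scale the difference was 1.01 (standard error 0.39, 95% interval 0.12 to 1.90; adjusted p = 0.327 in edgeR and 0.210 in DESeq2). It was 1.33 without Wt1KOΔEC replicate 1 and 0.70 without Wt1KOΔEC replicate 2. An antisense gene, *Gm5144*, shares 321 bases of exon with *Npr3*, and the SMART-seq2 protocol does not keep the strand; *Gm5144* itself had 22 counts in Wt1KOΔEC replicate 2, 1 count in Wt1KOΔEC replicate 3 and none elsewhere.

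Of 10 other genes of the natriuretic peptide system, 8 were tested. None was called in edgeR, where 1 (*Nppa*) was higher at an unadjusted p under 0.05, and DESeq2 called *Nppa*. *Npr1*, the signalling receptor for atrial natriuretic peptide, was the most abundant, at 75.1 ± 26.1 CPM in ControlΔEC and 81.6 ± 12.2 CPM in Wt1KOΔEC (log2 fold change 0.12, standard error 0.26, adjusted p = 0.921). *Nppa*, the atrial natriuretic peptide gene made by cardiomyocytes, was at 1.45, 1.99 and 0.867 CPM in ControlΔEC and at 5.25, 8.17 and 6.09 CPM in Wt1KOΔEC replicates 1, 2 and 3 (log2 fold change 2.17, standard error 0.57, adjusted p = 0.209 in edgeR and 0.0129 in DESeq2). *Nppb*, the brain natriuretic peptide gene, had 26, 0 and 21 counts in ControlΔEC and 49, 27 and 28 in Wt1KOΔEC replicates 1, 2 and 3 (adjusted p = 0.831 in edgeR). *Corin*, the protease that activates the precursor of the atrial peptide, had between 0 and 200 counts in any library. The 10 cardiomyocyte genes, among which *Nppa* also counts, summed to between 193 and 265 CPM in ControlΔEC and to between 162.5 and 350.2 CPM in Wt1KOΔEC. *Nkx2-5* had no counts in any ControlΔEC library and 0, 9 and 23 counts in Wt1KOΔEC replicates 1, 2 and 3, and was not tested. *Myh7*, a ventricular myosin of this stage, was at 55.9 ± 10.9 CPM and 64.9 ± 29.8 CPM, and *Actc1*, cardiac actin, at 93.9 ± 14.8 CPM and 134 ± 51.5 CPM, both with overlapping genotypes.

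*Nfatc1* (ENSMUSG00000033016.17; chromosome 18, 80649266 to 80756295) was the second most abundant of the 8 genes. It was at 169.8, 131.0 and 253 CPM in ControlΔEC replicates 1, 2 and 3, and at 202, 242 and 213 CPM in Wt1KOΔEC replicates 1, 2 and 3. The highest library was a control, and the mutants lay within the range of the controls. The log2 fold change was 0.25 (standard error 0.23, 95% interval -0.28 to 0.78; adjusted p = 0.748 in edgeR and 0.726 in DESeq2), and it was 0.55 without ControlΔEC replicate 3 and 0.05 without ControlΔEC replicate 2.

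NFATC1 enters the nucleus when the phosphatase calcineurin, activated by calcium, removes its phosphates. The 12 genes of this pathway were all tested and none was called in edgeR or DESeq2; 9 had a log2 fold change below 0, and the median was -0.35. *Ppp3ca*, *Ppp3cb* and *Ppp3cc*, which encode the catalytic subunits of calcineurin, each had an unadjusted p under 0.05 and lower mutant means, beside 7.12% of all genes tested that were lower at this threshold. *Ppp3ca* was at 41.6 ± 13.3 CPM in ControlΔEC and 25.5 ± 6.03 CPM in Wt1KOΔEC (log2 fold change -0.71, adjusted p = 0.331 in edgeR). *Ppp3cb* was at 15.9 ± 2.74 CPM and 9.24 ± 1.17 CPM (log2 fold change -0.78, adjusted p = 0.290 in edgeR). *Ppp3cc* was at 4.01 ± 1.38 CPM and 1.17 ± 0.765 CPM (log2 fold change -1.77, adjusted p = 0.367 in edgeR). For *Ppp3cb* and *Ppp3cc* the genotypes did not overlap. *Rcan1*, a calcineurin inhibitor that NFAT proteins induce, was the most abundant gene of the pathway, at 166 ± 10.9 CPM in ControlΔEC and 174 ± 14.5 CPM in Wt1KOΔEC (log2 fold change 0.07, 95% interval -0.26 to 0.40, adjusted p = 0.916).

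*Tmem100* (ENSMUSG00000069763.4; chromosome 11, 89921122 to 89928844) encodes a small membrane protein that endothelial cells make in response to BMP9 and BMP10 through the receptor ALK1. It was at 3.8, 10.5 and 12.8 CPM in ControlΔEC replicates 1, 2 and 3, and at 5.27, 9.69 and 12.8 CPM in Wt1KOΔEC replicates 1, 2 and 3. In both genotypes replicate 1 was the lowest and replicate 3 the highest, and the coefficient of variation was 51.7% in ControlΔEC and 40.8% in Wt1KOΔEC. The log2 fold change was 0.04 with a 95% interval from -1.11 to 1.18 (adjusted p = 0.990 in edgeR), and ran from -0.33 without ControlΔEC replicate 1 to 0.37 without ControlΔEC replicate 3, so its direction was not determined.

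Of the 14 genes of the ALK1 pathway, 13 were tested. None was called in edgeR, where 2 were higher and 2 lower at an unadjusted p under 0.05, and DESeq2 called *Id2* higher and *Gdf2* lower. *Eng*, the co-receptor endoglin, was the most abundant, at 1428 ± 227.5 CPM in ControlΔEC and 1565 ± 229 CPM in Wt1KOΔEC (log2 fold change 0.13, standard error 0.17, adjusted p = 0.833). In this list 3 genes were higher in every Wt1KOΔEC library, beside 10.3% of all genes tested, and 2 lower, beside 8.97%. *Id2* and *Id3*, targets of SMAD proteins below the receptor, were among the higher. *Id2* was at 85.2 ± 20.8 CPM in ControlΔEC and 156 ± 31.3 CPM in Wt1KOΔEC (log2 fold change 0.87, adjusted p = 0.209 in edgeR and 0.0130 in DESeq2). *Id3* was at 451 ± 47.8 CPM and 666 ± 61.6 CPM (log2 fold change 0.56, adjusted p = 0.209 in edgeR). *Bmpr2*, named after its value was seen, was lower in every Wt1KOΔEC library (log2 fold change -0.68, adjusted p = 0.307 in edgeR). *Gdf2*, which encodes BMP9 itself, had 132, 127 and 16 counts in ControlΔEC replicates 1, 2 and 3 and none in any Wt1KOΔEC library (adjusted p = 0.163 in edgeR and 0.000355 in DESeq2). Its ControlΔEC mean was 21.7 times the Wt1KOΔEC floor of 3 counts per library. ControlΔEC replicate 3 lay below that mean, at 0.555 CPM, so this is no lower limit for each library. *Bmp10* had no counts in any library, a count that can still hide up to 0.119 CPM in the shallowest one.

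*Cytl1* (ENSMUSG00000062329.5; chromosome 5, 37892863 to 37897329) encodes a small secreted protein, cytokine-like 1. It was at 9.14, 16.3 and 11.3 CPM in ControlΔEC replicates 1, 2 and 3, and at 7.55, 38.3 and 20.3 CPM in Wt1KOΔEC replicates 1, 2 and 3. Wt1KOΔEC held both the lowest and the highest library, and its coefficient of variation, 70.1%, was the largest of any member in either genotype. The log2 fold change was 0.84 (standard error 0.51, 95% interval -0.31 to 2.00; adjusted p = 0.554 in edgeR and 0.479 in DESeq2). Without Wt1KOΔEC replicate 2 it was 0.18, and without Wt1KOΔEC replicate 1 it was 1.25.

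Levels of different genes were compared as CPM per kb of exonic length, from GENCODE vM39. In ControlΔEC the order was *Emcn* (52.1 ± 7.46 CPM per kb), *Nfatc1* (24.2 ± 8.17), *Cytl1* (10.0 ± 3.03), *Cgnl1* (10.0 ± 0.489), *Cdh11* (6.64 ± 0.869), *Hapln1* (4.23 ± 0.449), *Tmem100* (1.40 ± 0.724) and *Npr3* (0.721 ± 0.174). The libraries of neighbours in this order overlapped for *Cytl1* with *Cgnl1* and for *Tmem100* with *Npr3*, and did not for the others. *Cytl1*, whose annotated exons span 1.22 kb, stood 6th by CPM and 3rd per kb. In Wt1KOΔEC *Cdh11*, at 11.8 ± 1.68 CPM per kb, stood above *Cgnl1*, at 10.1 ± 1.82, and *Npr3*, at 1.46 ± 0.653, above *Tmem100*, at 1.44 ± 0.586, with overlapping libraries in both pairs. The remaining places were those of the controls.

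Expressed against *Pecam1*, a gene of all endothelial cells, the comparison does not depend on how libraries are scaled. *Emcn* gave 23.2, 20.9 and 19.2 counts per 100 counts of *Pecam1* in ControlΔEC replicates 1, 2 and 3, and 29.8, 26.5 and 30.7 in Wt1KOΔEC replicates 1, 2 and 3. *Cdh11* gave 4.12, 6.37 and 4.00 in ControlΔEC and 7.25, 7.91 and 11.3 in Wt1KOΔEC. *Hapln1* gave 1.6, 2.23 and 1.78 in ControlΔEC and 2.75, 2.86 and 3.39 in Wt1KOΔEC. These were the same 3 genes that did not overlap between the genotypes in CPM, and the other 5 overlapped on this scale too. *Pecam1* itself was at 1635 ± 235 CPM in ControlΔEC and 1575 ± 149.8 CPM in Wt1KOΔEC (log2 fold change -0.05, 95% interval -0.40 to 0.29). This ratio was chosen after the data had been seen.

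**Figure D3:**
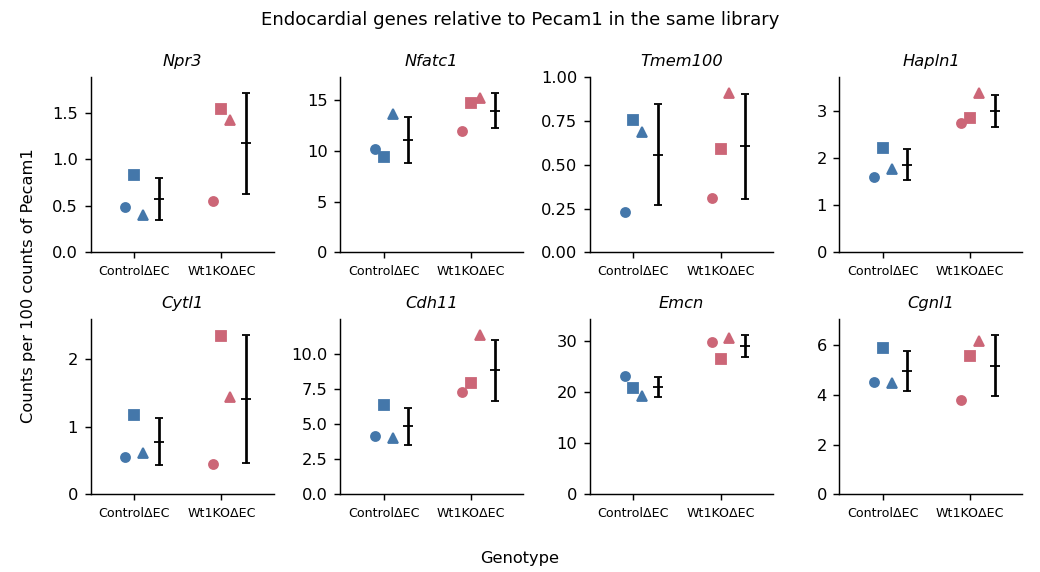
Counts of each of the 8 genes per 100 counts of *Pecam1* in the same library, by genotype, with 1 point per library (circle, square and triangle for replicates 1, 2 and 3) and the mean ± SD of 3 libraries as the bar beside them. The mutant points of *Hapln1*, *Cdh11* and *Emcn* lie above all control points, and those of the other 5 genes overlap the controls.

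The 8 genes did not move as one across the 6 libraries. No member was highest in ControlΔEC replicate 1 or 2, 1 (*Nfatc1*) was highest in ControlΔEC replicate 3 and 1 (*Emcn*) in Wt1KOΔEC replicate 1, while Wt1KOΔEC replicates 2 and 3 were highest for 3 members each. The likeness of 2 patterns was measured as the root mean square difference of log2 CPM over the 6 libraries after each gene was centred on its mean, where a smaller value is closer. The closest members were *Hapln1* and *Cdh11* (0.171), then *Hapln1* and *Emcn* (0.232). *Npr3* and *Cytl1* were 0.334 apart, both low in Wt1KOΔEC replicate 1 and high in replicate 2. *Npr3* and *Nfatc1*, the markers most often used for the layer, were 0.664 apart. Among 8478 genes with a mean of at least 10 CPM, the nearest to *Npr3* were *Slc2a3*, a glucose transporter (0.273), and *Ung*, a DNA repair enzyme (0.275). Those nearest to *Nfatc1* were *Katna1*, a subunit of the microtubule-severing enzyme katanin (0.0281), and *Prdm10* (0.0423). All 6 libraries enter these values, which include the difference between the genotypes.

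A further 14 genes with known expression in endocardium were read from the same fit. All were tested, 10 had a log2 fold change above 0 and 4 below, and their median was 0.72. In edgeR 6 were higher at an unadjusted p under 0.05, beside 5.96% of all genes tested. One call was made in edgeR, *Plvap*, beside 0.0491% called higher of all genes tested. DESeq2 called 5 higher, *Plvap*, *Gata4*, *Irx6*, *Adgrg6* and *Nrg1*, beside 1.66%. *Plvap* encodes the diaphragm protein of fenestrated endothelium and endocardium. It was at 63.2, 82.8 and 58.4 CPM in ControlΔEC replicates 1, 2 and 3 and at 331, 361 and 321.5 CPM in Wt1KOΔEC replicates 1, 2 and 3. *Gata4*, a transcription factor of endocardium and other cardiac cells, was at 21.7, 50.4 and 20.9 CPM in ControlΔEC and at 95.3, 98.3 and 87.8 CPM in Wt1KOΔEC (adjusted p = 0.120 in edgeR and 0.000204 in DESeq2). *Irx6* had no counts in ControlΔEC and 61, 18 and 23 counts in Wt1KOΔEC replicates 1, 2 and 3 (adjusted p = 0.209 in edgeR and 0.0141 in DESeq2). Its Wt1KOΔEC mean was 12.8 times the ControlΔEC floor of 3 counts per library, which is no lower limit for each library. Singled out after their values were seen, *Nrg1*, the trabeculation signal neuregulin-1, *Adgrg6* and *Tbx20* also lay higher in every Wt1KOΔEC library. *Nrg1* was at 7.13 ± 1.16 CPM in ControlΔEC and 15.3 ± 2.49 CPM in Wt1KOΔEC (adjusted p = 0.209 in edgeR and 0.0423 in DESeq2). *Adgrg6* was at 3.08 ± 2.62 CPM and 13.5 ± 0.658 CPM (adjusted p = 0.220 in edgeR and 0.0194 in DESeq2), and *Tbx20* at 3.75 ± 2.51 CPM and 8.85 ± 1.96 CPM (adjusted p = 0.366 in edgeR). The 4 with log2 fold changes below 0, also named after their values were seen, were *Hand2* (-0.42), *Klf2* (-0.33), *Inhba* (-0.32) and *Vwf* (-0.23). Their genotypes overlapped, as did those of *Gata5*, *Wnt4*, *Wnt9b* and *Foxp1*, which were above 0. In this direction 6 of the 14 did not overlap, beside 3 of the 8 members and 10.3% of all genes tested. Both lists were chosen with earlier results of these data known, so these shares are not independent evidence of enrichment. The study itself reports *Gata4* and *Irx6* as upregulated.

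Genes of the coronary endothelium were read for contrast. This list too was chosen with earlier results of these data known, and the study reports *Apln* and *Meox2* as downregulated. All 12 were tested, 10 had a log2 fold change below 0, and the median was -0.30. None was called in edgeR, where 3 were lower at an unadjusted p under 0.05, beside 7.12% of all genes tested. DESeq2 called 2 lower, *Apln* and *Meox2*, beside 2.02% of all genes tested. *Apln*, the ligand made by sprouting endothelial cells, was at 140.5 ± 27.9 CPM in ControlΔEC and 70.3 ± 11.9 CPM in Wt1KOΔEC (adjusted p = 0.114 in edgeR and 0.000417 in DESeq2). *Meox2*, a transcription factor of cardiac capillaries, had a log2 fold change of -0.84 (adjusted p = 0.220 in edgeR and 0.0223 in DESeq2), and *Cd36*, a fatty acid transporter, of -0.89 (adjusted p = 0.334 in edgeR). *Kdr*, the main VEGF receptor and the most abundant of the list, was at 1136 ± 93.4 CPM and 931 ± 66.4 CPM (log2 fold change -0.29, adjusted p = 0.425). Of the 8 pan-endothelial genes none was called in edgeR, where 1 (*Cd34*) was lower at an unadjusted p under 0.05, or in DESeq2, and their median was -0.10; *Tek*, the angiopoietin receptor, was at 392 ± 15.6 CPM in ControlΔEC and 340.1 ± 48.1 CPM in Wt1KOΔEC, and *Esam*, an adhesion molecule, at 846 ± 169 CPM and 743.5 ± 52.6 CPM. The difference between the endocardial and the coronary lists was not tested.

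**Figure D4:**
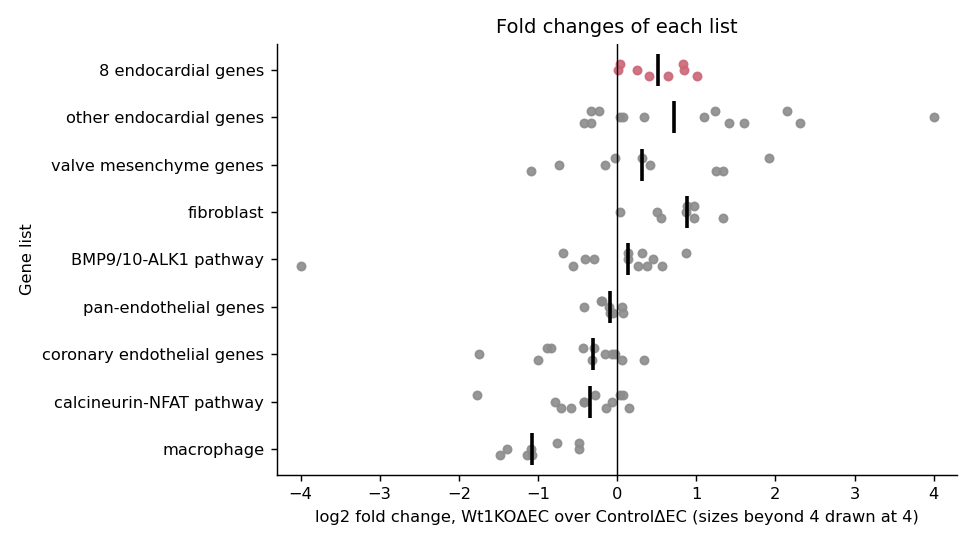
Each point is the log2 fold change, Wt1KOΔEC over ControlΔEC, of 1 tested gene of a list, and the black bar is the median of the list; *Irx6* and *Gdf2*, which had no counts in 1 genotype, lie beyond the axis and are drawn at its ends. The medians are 0.52 for the 8 endocardial genes, 0.72 for the other endocardial genes, 0.88 for the fibroblast genes and -0.30 for the coronary endothelial genes. Among lists not drawn, the median was 1.08 for epicardial and 0.97 for lymphatic endothelial genes, both larger than these. It was -0.35 for mural and -0.36 for erythroid genes. All lists were chosen with earlier results of these data known.

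Markers of other cells the sort could hold were read last. The 9 epicardial genes summed to between 14.2 and 20.3 CPM in ControlΔEC and to between 20.8 and 53.8 CPM in Wt1KOΔEC. Of these, *Aldh1a2* was at 7.05 ± 5.79 CPM and 6.80 ± 2.76 CPM, *Upk3b* at 2.03 ± 1.46 CPM and 9.05 ± 3.43 CPM, *Msln* at 0.578 ± 0.674 CPM and 9.79 ± 8.25 CPM, and *Upk1b* at 1.46 ± 0.638 CPM and 3.51 ± 1.32 CPM. The 5 lymphatic endothelial genes summed to between 274 and 283 CPM in ControlΔEC and to between 284 and 384 CPM in Wt1KOΔEC; *Prox1*, their defining transcription factor, was at 19.1 ± 8.18 CPM and 40.4 ± 5.36 CPM (adjusted p = 0.235 in edgeR). *Flt4* was at 238 ± 19.4 CPM and 264 ± 38.8 CPM, *Lyve1* at 14.0 ± 5.99 CPM and 27.4 ± 17.4 CPM, and *Pdpn* at 2.49 ± 2.37 CPM and 4.65 ± 1.67 CPM. The sums of the 8 macrophage genes lay between 258 and 787 CPM in ControlΔEC and between 189 and 273 CPM in Wt1KOΔEC, and those of the 8 mural genes between 433.5 and 473 CPM and between 307 and 357 CPM. Among macrophage genes, *Csf1r* was at 195 ± 118 CPM and 73.9 ± 17.6 CPM, *Adgre1* at 52.9 ± 34.1 CPM and 19.0 ± 3.10 CPM, and *Ptprc* at 16.5 ± 7.28 CPM and 7.74 ± 2.86 CPM. Among mural genes, *Abcc9* was at 263 ± 28.6 CPM and 197 ± 35.1 CPM, *Pdgfrb* at 56.8 ± 15.0 CPM and 23.9 ± 8.47 CPM, and *Cspg4* at 13.9 ± 3.70 CPM and 5.94 ± 0.882 CPM. The 8 erythroid genes, which mark blood, summed to between 6573 and 14360 CPM in ControlΔEC and to between 5137 and 8537 CPM in Wt1KOΔEC. Of these, *Hba-a1* was at 3550 ± 1502 CPM and 2445 ± 744 CPM, *Hbb-y* at 26.2 ± 18.1 CPM and 156 ± 46.7 CPM, *Hba-x* at 10.9 ± 8.13 CPM and 47.4 ± 20.8 CPM, and *Alas2* at 139 ± 78.1 CPM and 62.9 ± 11.7 CPM. The median log2 fold change was 1.08 for the epicardial and 0.97 for the lymphatic list, both above that of the 8 endocardial genes, 0.52. It was -1.08 for the macrophage, -0.35 for the mural and -0.36 for the erythroid list. No gene of these 5 lists was called in edgeR. DESeq2 called 2 epicardial genes and 1 lymphatic gene higher, 2 macrophage genes and 2 mural genes lower, and 2 erythroid genes higher and 2 lower. Of all genes tested, DESeq2 called 1.66% higher and 2.02% lower. Their part in the values of the 8 endocardial genes was not tested.

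**Figure D5:**
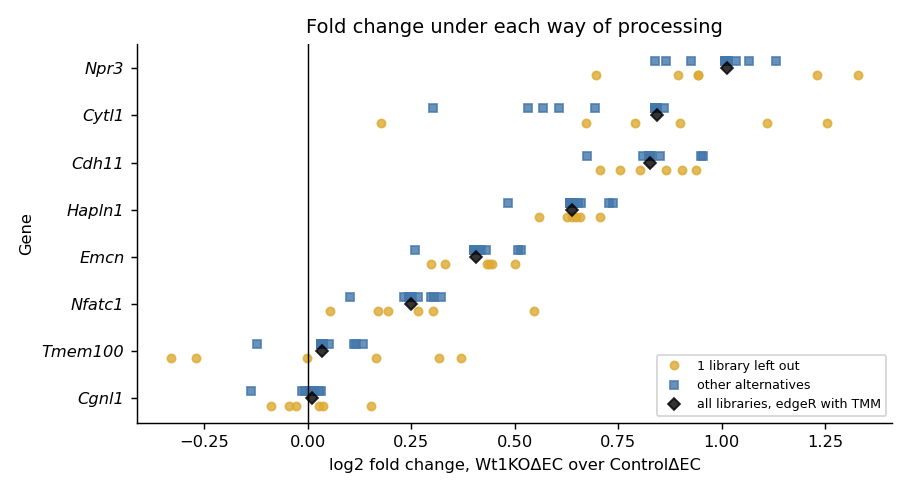
Log2 fold change of each of the 8 genes, Wt1KOΔEC over ControlΔEC, with all libraries in edgeR with TMM (black), with 1 library left out (yellow) and under the other alternatives (blue). *Cdh11* stays between 0.67 and 0.96 and *Hapln1* between 0.48 and 0.74 over all of them, while *Tmem100* runs from -0.33 to 0.37 and *Cgnl1* from -0.14 to 0.15.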

How the data were processed

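The authors prepared SMART-seq2 libraries with Nextera XT and mapped the reads with STAR 2.7.8a and quantified genes with RSEM 1.3.0. Their methods name GRCm39 and GENCODE vM27, while the processing notes name GRCm38; what the authors deposited are expected counts from RSEM, not normalized, held as integers. RSEM divides reads shared by similar sequences, which can move counts between paralogues.

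The analysis used edgeR 4.0.16 (R 4.3.3). A gene needed 10 or more counts in 2 or more libraries (16296 passed), TMM factors were computed, and Wt1KOΔEC was compared with ControlΔEC by edgeR's quasi-likelihood F test, with p-values adjusted over all tested genes after Benjamini and Hochberg. Calls needed an adjusted p under 0.05 and a log2 fold change above 0.58 in size. Standard errors are the fold change over the square root of F. DESeq2 1.42.0 and limma-voom (limma 3.58.1) were alternatives, as were other scalings and filters, offsets for gene length and GC content, the replicate block and leaving out each library. The steps were tested on simulated data. *Nrg1* was read from the ID ENSMUSG00000062991.10, since a second ID of that name had no counts.

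The labels call the replicates biological, without saying how many embryos each holds. The 8 genes and all lists were chosen with earlier results of these data known. Named are the members, *Wt1*, and in each list the most abundant gene, the 3 with the smallest p and any called, plus the 2 genes nearest in pattern to *Npr3* and *Nfatc1*; others are marked as chosen later.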

Additional observations from a re-analysis of the deposited data

How the results depend on the processing

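No member was called in any fit but 3: without the filter on low counts 1 was (*Cdh11*, adjusted p = 0.0250), with DESeq2 2 were, and with DESeq2 on every gene, chosen after seeing the data, 2 were. Between 2 and 5 members had an unadjusted p under 0.05 over all alternatives. The number of genes called, 12 with all libraries, was 296 without the filter, 599 with DESeq2, 759 with DESeq2 on every gene, 7 with length and GC offsets, 5 with the replicate block, 5 with both of these, and between 2 (without Wt1KOΔEC replicate 3) and 37 (without ControlΔEC replicate 3) with single libraries left out. Among the genes of the lists, 2 (*Plvap* and *Col1a1*) were called with all libraries, 18 without the filter, 25 with DESeq2, 26 with DESeq2 on every gene, 1 with library size only, 1 with the replicate block, 1 with offsets, 1 with both, and between 1 and 4 with single libraries left out. *Plvap* was called in every fit; where 1 was called, the call lost was that of *Col1a1*, whose adjusted p was 0.0911 with the replicate block and 0.0999 with the block and offsets. *Wt1* kept its call throughout. By plain CPM, 4 of the 8 members kept their place in the order of levels. The cause of these shifts was not tested.

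*Tmem100* reversed to -0.12 with library size only, and to -0.33, -0.0007 and -0.27 without ControlΔEC replicate 1, Wt1KOΔEC replicate 2 and Wt1KOΔEC replicate 3; with single libraries left out it ran from -0.329 to 0.3716. *Cgnl1* reversed to -0.14 with library size only, -0.0134 with limma-voom, -0.0053 with the replicate block, and -0.0274, -0.0876 and -0.0457 without ControlΔEC replicate 1, Wt1KOΔEC replicate 2 and Wt1KOΔEC replicate 3, and was 0.1522 without Wt1KOΔEC replicate 1. Scaling by library size only moved the median of all genes from -0.03 to -0.18. Same-numbered libraries deviated together with correlations of 0.0526, 0.17 and 0.0944 over 8307 genes, so the numbers were not taken as pairs, although each library correlated best with its own number, a hint from the data only; the replicate block changed no call of a member.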
